A study of Mus musculus with 4 samples.

Results

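The 10 genes described here encode 6 matrix metalloproteinases (Mmp8, Mmp9, Mmp12, Mmp13, Mmp14 and Mmp19), the collagen-degrading cysteine protease cathepsin K (Ctsk) and 3 tissue inhibitors of metalloproteinases (Timp1, Timp2 and Timp3). They were chosen by name, and all 10 were among the 32285 genes of the deposited matrices. Female C57BL/6 mice with an intact immune system carried GFP-labelled EO771 cells, a mouse mammary cancer line, in the brain and received vehicle or an inhibitor of stearoyl-CoA desaturase (SCDi) over 14 days; neither the compound nor its dose is given in the labels. Brains of 3 mice per treatment were combined before sorting. The live CD45-negative, GFP-positive tumour cells and the live CD45-positive, GFP-negative immune cells were each captured as 1 droplet library of 3′ RNA counts, so that the study holds 4 libraries. All groups therefore carried the same implanted line, the untreated brain was not among them, and no library has a replicate.

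Metalloproteinases are zinc enzymes, mostly made as inactive proforms, that cut collagens, elastin, gelatin and other matrix proteins, and TIMPs bind and block their active sites. In brain tumours such enzymes are known for remodelling the vessel wall and the matrix around invading cells, and much of the supply is known to come from myeloid cells. Cathepsin K is best known from osteoclasts, where it degrades bone collagen in an acidic space. A transcript count says nothing of whether the enzyme was secreted, activated or inhibited.

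The libraries held 7332 (vehicle immune), 7713 (vehicle tumour), 6777 (SCDi immune) and 9034 (SCDi tumour) barcodes, with 135851178, 307846497, 141068797 and 329888529 unique molecular identifiers (UMIs, counted transcript molecules) in the same order. Between 9 and 23 barcodes were shared by any pair of libraries, at most 0.314% of the smaller library. Filters left 6572, 7009, 6120 and 8262 cells, which formed 25 immune and 16 tumour clusters. Classes were named from marker genes and are called "-like" for that reason. Levels are given in CPM, the UMIs of a gene summed over the cells of a class per 1000000 UMIs of that class. All 12 macrophage markers were detected in the macrophage-like cells, but also in monocyte-, microglia- and malignant-like cells. Their summed level was 26166 CPM in vehicle and 23343 CPM in SCDi macrophage-like cells. It was 26710 and 27023 CPM in microglia-like and 5786 and 5115 CPM in monocyte-like cells. The epithelial keratin gene Krt8 was detected in 99.9% of the malignant-like cells of either library. Krt18 was found in 17.9% and 20.6% of them and Epcam in 1.58% and 1.39%. Krt8 was also found in 53.8% and 54.3% of the endothelial-like cells of the tumour sort. Ptprc (CD45) had 4 UMIs over all vehicle and 0 over all SCDi malignant-like cells. Each interval is a 95% interval of the counting error alone, and no p-value can be given with 1 pooled library per group. A gene counted as measured in a class with at least 50 UMIs over both libraries and as higher or lower past a ratio of 1.5. Levels of different genes were not ranked against each other.

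Macrophage-like cells were the main immune source of 5 genes, monocyte-like cells of 3, and neutrophil-like and migratory dendritic-like cells of 1 each. Macrophage-like cells held 81.5% of the Mmp12 UMIs of the vehicle immune library and 68.0% of those of the SCDi immune library. For Mmp13 they held 80.6% and 78.7%, for Ctsk 74.5% and 71.2%, for Mmp14 52.5% and 56.1%, and for Timp2 46.5% and 46.4%. Monocyte-like cells held the largest share of Mmp8 (51.7% and 51.4%), Mmp19 (51.2% and 44.4%) and Timp1 (52.9% and 41.3%). Neutrophil-like cells, only 74 and 53 in number, held 78.8% and 82.5% of the immune Mmp9 UMIs. Migratory dendritic-like cells held 62.6% and 58.5% of the immune Timp3 UMIs. These shares depend on how many cells of a class were sorted, whereas CPM do not. The class with the most UMIs of a gene was the same in both immune libraries for 10 of 10 genes.

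**Figure D1:**
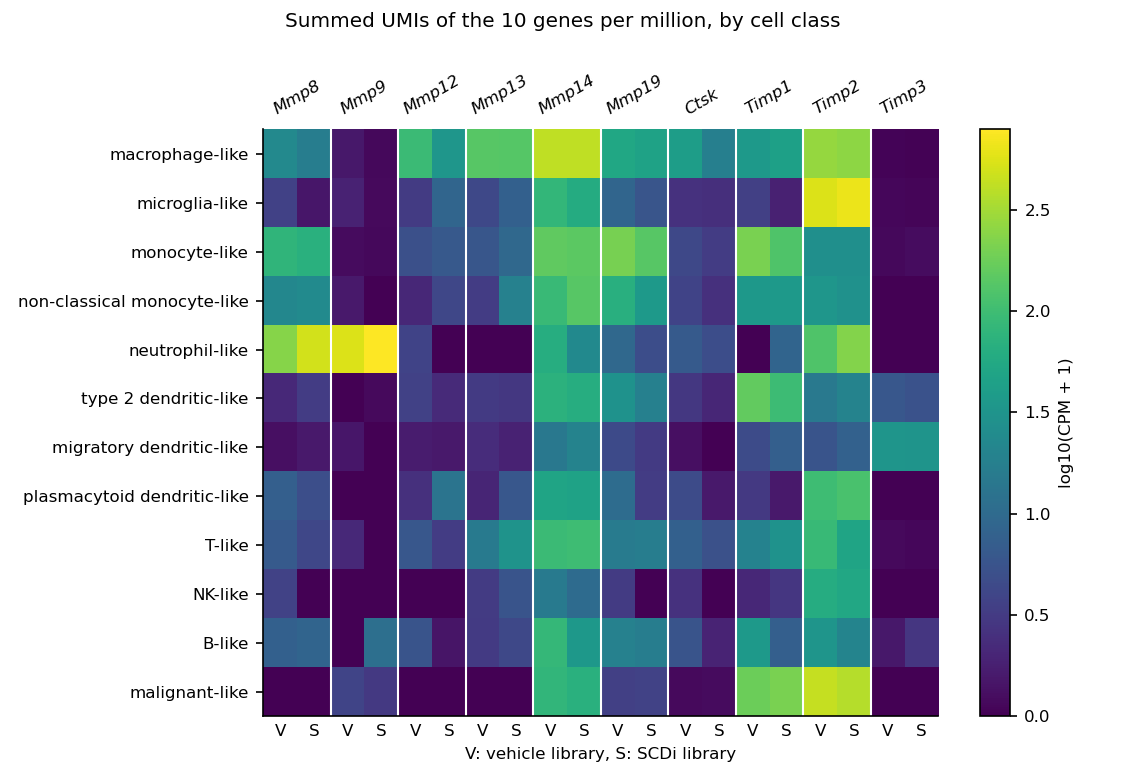
Level of each gene, as log10(CPM + 1), in the 12 classes that reached 50 cells and 100000 UMIs in vehicle and in SCDi, with vehicle (V) and SCDi (S) side by side. Mmp12, Mmp13 and Ctsk are brightest in macrophage-like cells, Mmp9 in neutrophil-like cells and Timp3 in migratory dendritic-like cells, among these 12 classes and in both libraries.

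In the vehicle library the 6 metalloproteinases summed to 726 CPM in macrophage-like cells, 443 in monocyte-like cells, 858 in neutrophil-like cells and 85.1 in malignant-like cells. The 3 inhibitors summed to 307, 234, 125 and 615 CPM in the same classes. In SCDi the metalloproteinase sums were 647, 368, 1319 and 73.1 CPM and the inhibitor sums 299, 152, 235 and 579 CPM. Of these 4 classes, neutrophil-like cells had the highest metalloproteinase sum and malignant-like cells the highest inhibitor sum in both libraries. Single genes made up much of a sum. In vehicle, Mmp14 gave 420 of the 726 CPM in macrophage-like cells and Mmp9 548 of the 858 CPM in neutrophil-like cells. Timp2 gave 438 of the 615 CPM in vehicle malignant-like cells.

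In macrophage-like cells 2 of the 8 measured genes, Mmp12 and Ctsk, were more than 1.5-fold lower in the SCDi library and 0 were higher. Over all 11962 genes measured in these cells, 4.94% were lower and 1.79% higher by the same rule. The median log2 ratio (SCDi over vehicle) of the 8 genes was -0.15, beside -0.03 for all genes. The class held 1673 vehicle and 1768 SCDi cells with median depths of 18064 and 20588.5 UMIs.

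Mmp12, the macrophage metalloelastase, cuts elastin and other matrix proteins. It had 3191 UMIs in vehicle and 1346 in SCDi macrophage-like cells, which is 92.3 CPM (89.1 to 95.5) and 32.0 CPM (30.3 to 33.7). The SCDi library was 2.88-fold lower (log2 ratio -1.53, -1.62 to -1.44). The gene lies at chr9:7344381-7369499 of GRCm38 on the plus strand and overlaps Mmp1b on the other strand, which had 0 UMIs in macrophage-like cells of either library.

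Few cells carried most of the Mmp12. A UMI was found in 16.9% of vehicle and 9.95% of SCDi macrophage-like cells. After every cell was thinned to 2000 UMIs, the shares were 7.24% (6.04 to 8.60) and 2.89% (2.16 to 3.78). T-like cells should not make the transcript, and their thinned shares were 0.218% for vehicle and 0 of 290 for SCDi, a count that limits the share to 1.03%. Their median depths were 15726.5 and 16227.5 UMIs. T-like cluster 9 held 48 of the 54 vehicle and 4 of the 17 SCDi Mmp12 UMIs of the T-like class. Before cells with both lymphoid and myeloid transcripts were removed, this cluster had 214 and 202 cells with median depths of 28322.5 and 30207 UMIs. After removal it had 100 and 62 cells. Whether such mixed cells remain in it was not tested, so the T-like shares of each gene may hold more than background from free RNA. The 10% of macrophage-like cells with the most Mmp12 held 95.5% of its vehicle UMIs and 100% of its SCDi UMIs. The SCDi value had to be 100%, since only 9.95% of those cells had any Mmp12 UMI. The cell with the most Mmp12 had 351 UMIs in vehicle and 71 in SCDi, and 76 and 35 cells had 10 or more.

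Ctsk had 1373 and 711 UMIs in the macrophage-like cells of vehicle and SCDi. The levels were 39.7 CPM (37.6 to 41.9) and 16.9 CPM (15.7 to 18.2), 2.35-fold lower in SCDi (log2 ratio -1.23, -1.36 to -1.10). A UMI was found in 19.96% and 14.1% of the cells, and after thinning in 6.22% (5.10 to 7.49) and 3.06% (2.31 to 3.98). The thinned shares in T-like cells were 1.31% and 1.03%, and T-like cluster 9 held 64 of their 71 vehicle and 27 of their 31 SCDi Ctsk UMIs. Ctsk lies at chr3:95499256-95509362 of GRCm38 on the plus strand.

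Mmp13, a collagenase that also cuts fibrillar collagen in bone and cartilage, did not share this pattern. Its 4783 and 5748 UMIs came to 138 CPM (134 to 142) in vehicle and 137 CPM (133 to 140) in SCDi, a log2 ratio of -0.02 (-0.07 to 0.04). The share of cells with a UMI was 28.5% and 31.3%, and after thinning 12.1% (10.6 to 13.8) and 12.8% (11.3 to 14.5). Thinned shares of T-like cells were 1.53% and 1.38%. Mmp13 lies at chr9:7272514-7283331 on the plus strand, on the same chromosome as Mmp12 and Mmp8.

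Mmp14, a membrane-anchored metalloproteinase that cuts collagen at the cell surface and activates other proforms, was spread over nearly the whole class. It had 14524 and 17542 UMIs, which is 420 CPM (413 to 427) and 417 CPM (411 to 423), a log2 ratio of -0.01 (-0.04 to 0.02). A UMI was found in 96.0% and 96.3% of macrophage-like cells, and in 54.5% and 54.0% after thinning, against 8.95% and 11.03% in T-like cells. T-like cluster 9 held 711 of the 981 vehicle and 527 of the 719 SCDi Mmp14 UMIs of the T-like class. The T-like level was 94.0 and 97.2 CPM, and that of NK-like cells 14.5 and 9.24 CPM. Where Mmp12 sat in few cells, the top 10% of cells for Mmp14 held 27.7% and 27.1% of its UMIs.

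**Figure D2:**
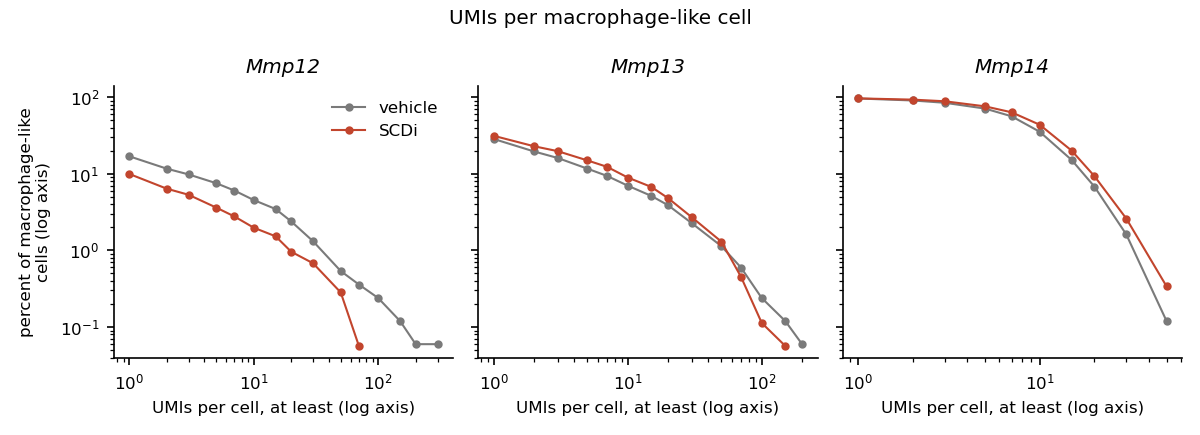
Percentage of macrophage-like cells (vertical, log scale) with at least a given number of UMIs (horizontal, log scale) of Mmp12, Mmp13 and Mmp14, vehicle and SCDi. The Mmp12 curve of SCDi lies below that of vehicle and ends at 71 rather than 351 UMIs, while the Mmp14 curves nearly coincide.

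The promoters of the pair that was lower and of Mmp13, which was not, are shown because these genes share a main source and differ in ratio. Each run is the 250 bases before a RefSeq start of GRCm38.p6, 5′ to 3′ on the plus strand, at chr9:7347124-7347373 (Mmp12, the start inside its longer gene model), chr9:7272264-7272513 (Mmp13) and chr3:95498960-95499209 (Ctsk). Capitals mark matches to the AP-1 motif TGANTCA and to the TATA box TATAAA.
Mmp12: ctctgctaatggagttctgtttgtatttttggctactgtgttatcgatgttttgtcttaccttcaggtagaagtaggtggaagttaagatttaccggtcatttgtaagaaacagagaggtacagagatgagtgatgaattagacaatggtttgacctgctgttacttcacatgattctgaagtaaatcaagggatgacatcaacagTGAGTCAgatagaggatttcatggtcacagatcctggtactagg
Mmp13: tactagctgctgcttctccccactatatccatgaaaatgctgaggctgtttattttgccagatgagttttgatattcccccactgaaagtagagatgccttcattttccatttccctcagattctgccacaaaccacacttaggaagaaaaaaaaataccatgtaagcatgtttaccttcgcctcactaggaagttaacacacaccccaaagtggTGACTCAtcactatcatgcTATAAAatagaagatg
Ctsk: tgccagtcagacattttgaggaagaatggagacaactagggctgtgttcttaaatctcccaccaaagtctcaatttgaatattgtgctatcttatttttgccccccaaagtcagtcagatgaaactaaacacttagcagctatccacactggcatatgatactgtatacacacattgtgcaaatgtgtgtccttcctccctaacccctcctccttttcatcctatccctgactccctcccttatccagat
Mmp12 had the AP-1 letters 44 to 38 bases before this start, and Mmp13 had them 35 to 29 bases before its start with TATAAA at 16 to 11 bases. Ctsk had neither. TGANTCA was found in 2 of the 9 member promoters, TATAAA in 1 and the PU.1 motif GAGGAAGT in 2 (Mmp8 and the first start of Mmp12). The degenerate NF-kB consensus was in 1 (the first start of Mmp12), a pattern that was widened after narrower ones had matched no member promoter, and the E-box CACGTG and the STAT motif TTCNNNGAA were in 0. Among all 32851 promoters of this length, with both strands searched for each motif, the shares were 6.75% for TGANTCA, 12.4% for TATAAA and 2.44% for GAGGAAGT. They were 6.02% for CACGTG, 7.02% for TTCNNNGAA and 7.25% for the NF-kB consensus. A match describes letters in this window and is not evidence of binding. The 9 promoters covered 8 of the 10 genes, all but Mmp9 and Mmp19.

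The macrophage-like class was made of 3 clusters, from which the 10 genes had been left out during clustering. Cluster 1 was led by Edn1 and Spp1, cluster 2 by Pf4 and Folr2 and cluster 4 by Gpnmb and Apoc2. They held 37.4%, 36.3% and 26.3% of the vehicle class and 43.7%, 38.6% and 17.7% of the SCDi class.

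Mmp12 was lower in SCDi in all 3 clusters. It stood at 136 and 36.4 CPM in cluster 1 (log2 ratio -1.91, -2.05 to -1.76), at 83.4 and 34.3 CPM in cluster 2 (-1.28, -1.42 to -1.15) and at 57.5 and 17.7 CPM in cluster 4 (-1.70, -1.98 to -1.43). Ctsk, highest in the Gpnmb cluster, was lower in all 3 as well. It stood at 37.7 and 18.4 CPM in cluster 1 (-1.03), at 17.4 and 4.69 CPM in cluster 2 (-1.89) and at 76.6 and 45.1 CPM in cluster 4 (-0.77). The share of cluster 4 was smaller in SCDi, and the part of this difference in the class level of Ctsk was not tested. Outside the class, unnamed cluster 3, led by Ly6i, Cxcl9 and MHC class II genes, held Mmp12 at 29.5 and 19.3 CPM (-0.61) and Mmp14 at 453 and 373 CPM. Unnamed cluster 6 held Mmp12 at 47.3 and 41.3 CPM (-0.19, -0.61 to 0.21), and its Mmp13 was at 28.7 and 112 CPM (1.96, 1.58 to 2.36), from 74 and 238 UMIs.

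Mmp13 was a gene of clusters 1 and 2, at 146 and 116 CPM in cluster 1 (log2 ratio -0.33) and 212 and 196 CPM in cluster 2 (-0.11). In cluster 4 it stood at only 15.2 and 24.5 CPM (0.68, 0.36 to 1.01). Mmp14 was similar across the clusters, at 498 and 502, 365 and 335, and 420 and 464 CPM in clusters 1, 2 and 4.

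**Figure D3:**
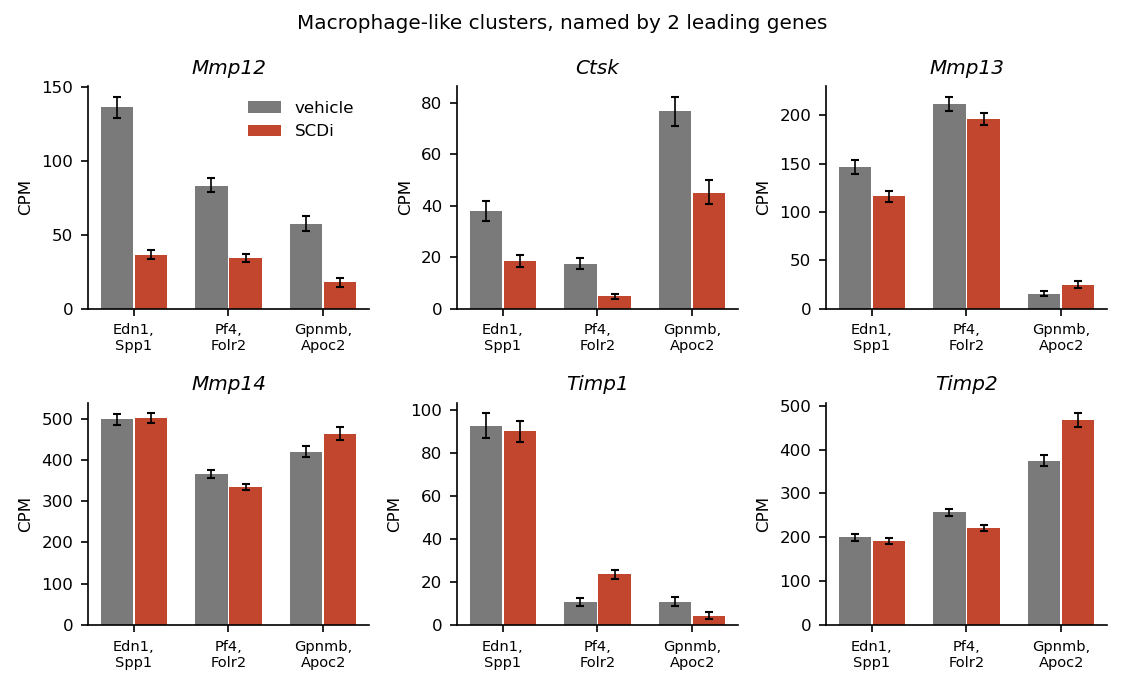
CPM with 95% counting intervals (bars from 0) of Mmp12, Ctsk, Mmp13, Mmp14, Timp1 and Timp2 in the 3 macrophage-like clusters, vehicle and SCDi. Mmp12 and Ctsk are lower in SCDi in each cluster, Ctsk and Timp2 are highest in cluster 4, and Timp1 is highest in cluster 1.

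Within single macrophage-like cells thinned to 5000 UMIs, Mmp13 was found more often in cells with Mmp12 than in cells without it. Of the 167 vehicle cells with an Mmp12 UMI, 38.9% also had Mmp13, against 14.9% of the cells without Mmp12. In SCDi the shares were 41.1% of 95 cells and 17.8%. Of 184 Ctsk-positive vehicle cells, 77.2% had Timp2, against 56.2% of the others, and in SCDi the shares were 67.5% of 114 cells and 52.0%. Mmp12 was found in 15.2% of the Ctsk-positive vehicle cells against 9.65% of the others, and in 6.14% against 5.37% in SCDi. For Mmp19 the shares were 20.7% and 19.2% in vehicle and 26.3% and 18.7% in SCDi. Cells of 1 library are not replicates, and these shares describe the libraries.

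Timp2, an inhibitor that also takes part in the activation of pro-Mmp2 by Mmp14, was at 272 and 255 CPM in macrophage-like cells (log2 ratio -0.09). It was highest in cluster 4, at 375 and 468 CPM. Timp1, a secreted inhibitor induced by many cytokines, was at 35.3 and 43.4 CPM (0.30, 0.19 to 0.40), and its clusters went different ways. It stood at 92.4 and 90.0 CPM in cluster 1, at 10.7 and 23.5 CPM in cluster 2 (1.14) and at 10.8 and 4.17 CPM in cluster 4 (-1.37). Mmp8 was at 21.9 and 15.7 CPM (-0.48, -0.63 to -0.32) and Mmp19 at 52.8 and 45.6 CPM (-0.21). Mmp9 and Timp3 were nearly absent, with 18 and 7 and with 2 and 2 UMIs.

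In monocyte-like cells 8 genes were measured, and 1 was past 1.5-fold lower (Timp1) and 1 past it higher (Mmp13). Of all genes measured there, 2.66% were lower and 2.53% higher. The median log2 ratio of the 8 genes was -0.13, against -0.00 over all genes.

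Timp1 had 3860 UMIs in 1149 vehicle and 2424 in 1211 SCDi monocyte-like cells, whose median depths were 14958 and 14912 UMIs. It stood at 207 CPM (201 to 214) and 125 CPM (120 to 130), 1.66-fold lower in SCDi (log2 ratio -0.73, -0.81 to -0.66). A UMI was found in 39.3% and 32.2% of cells, and after thinning in 16.3% and 12.7%, against 1.97% and 2.76% in T-like cells. Both monocyte-like clusters were lower, at 247 and 157 CPM in cluster 0 (-0.66) and 27.5 and 11.6 CPM in cluster 8 (-1.25). Cluster 8, led by Prtn3 and Cd177, held 19.4% of the vehicle and 23.7% of the SCDi class. Timp1 lies at chrX:20870166-20874735 of GRCm38 on the plus strand within Syn1 of the other strand, and whether the counting used strand is not given in the sources used here.

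Mmp19, a metalloproteinase that cuts basement membrane proteins, was highest in monocyte-like cells. It had 3749 and 2701 UMIs, at 202 CPM (195 to 208) and 139 CPM (134 to 145), 1.45-fold lower in SCDi (log2 ratio -0.53, -0.61 to -0.46), which is short of the 1.5-fold rule. A UMI was found in 74.9% and 63.7% of cells, and after thinning in 28.8% and 21.0%, against 0.873% and 1.72% in T-like cells. The difference was in cluster 0, at 220 and 148 CPM (-0.57), and small in cluster 8, at 116 and 108 CPM (-0.11, -0.30 to 0.09). Of the T-like Mmp19 UMIs, 115 of 156 in vehicle and 77 of 118 in SCDi lay in T-like cluster 9.

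The collagenase Mmp8, stored in neutrophil granules, was also found in monocyte-like cells at 77.0 CPM (73.1 to 81.1) and 68.1 CPM (64.5 to 71.9), a log2 ratio of -0.18. It was higher in cluster 8, at 146 and 125 CPM, than in cluster 0, at 61.9 and 52.2 CPM. Mmp14 had the opposite order, at 186 and 184 CPM in cluster 0 and 13.7 and 11.1 CPM in cluster 8. Mmp8 lies at chr9:7558456-7568485 and Mmp19 at chr10:128790910-128800824, both on the plus strand. Mmp19 overlaps Tmem198b and Gm47093 on the other strand, and Tmem198b had 5.91 and 5.72 CPM in monocyte-like cells.

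Mmp13 was low in monocyte-like cells, with 92 and 167 UMIs or 4.95 and 8.61 CPM (log2 ratio 0.80, 0.42 to 1.18). T-like cells held 14.4 and 29.5 CPM, and 106 of their 150 vehicle and 181 of their 218 SCDi UMIs lay in T-like cluster 9. The monocyte-like level is below that of T-like cells and above those of NK-like cells (2.16 and 4.62 CPM), B-like cells (2.08 and 3.30 CPM) and migratory dendritic-like cells (1.32 and 0.896 CPM). Mmp12 was at 4.09 and 5.46 CPM in monocyte-like cells, beside 5.17 and 2.30 CPM in T-like cells.

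**Figure D4:**
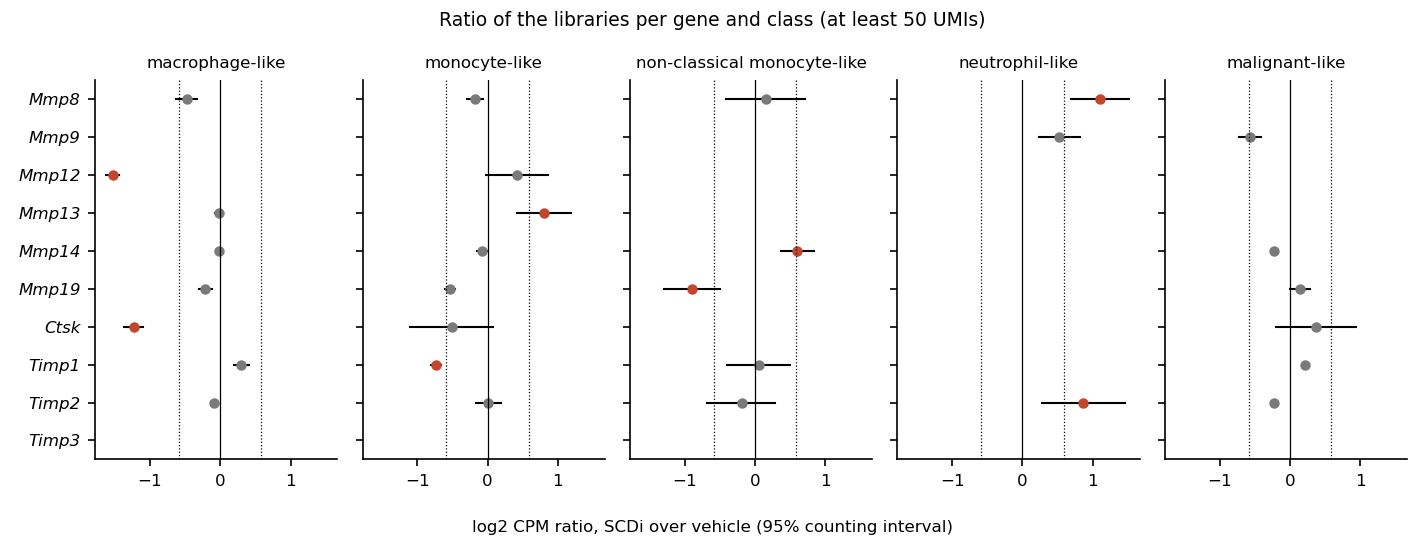
Log2 ratio of SCDi over vehicle with its 95% counting interval for each measured gene in 5 classes (red, past 1.5-fold; dotted lines, 1.5-fold). Mmp12 and Ctsk in macrophage-like cells and Timp1 in monocyte-like cells lie below the lower line, and Mmp8 in neutrophil-like cells lies above the upper one.

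In non-classical monocyte-like cells (195 and 123), Mmp19 had 238 and 70 UMIs, at 67.0 and 36.1 CPM (log2 ratio -0.89, -1.30 to -0.50). Mmp14 there was at 90.4 and 137 CPM (0.60, 0.36 to 0.84). Thus 1 gene was lower and 1 higher of 5 measured, with 4% and 4.1% of all genes. In type 2 dendritic-like cells (345 and 282), Timp1 was at 156 and 94.97 CPM (-0.72) and Mmp19 at 29.4 and 17.3 CPM (-0.76), so 2 of 5 were lower and 0 higher, where 3.96% and 4.71% of all genes were.

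Neutrophil-like cells gave the highest Mmp9 and Mmp8 levels among the 12 classes with at least 50 cells, from few cells and shallow counts. The median depth was 3668.5 UMIs in 74 vehicle cells and 4602 in 53 SCDi cells. Of 3 measured genes, 2 (Mmp8 and Timp2) were higher in SCDi and 0 lower, where 10.3% and 17.2% of all 2093 genes were. The summed neutrophil markers were themselves higher in SCDi, at 72413.5 and 118652 CPM, with 10 of 10 detected in both libraries, and the part of this difference in the results was not tested.

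Mmp9, a gelatinase released from neutrophil granules, had 193 and 208 UMIs. It stood at 548 CPM (474 to 632) and 788 CPM (685 to 903), a log2 ratio of 0.52 (0.23 to 0.81). It was found in 62.2% and 81.1% of the cells, and after thinning in 47.8% (35.6 to 60.2) and 68.0% (53.3 to 80.5), intervals that overlap. T-like cells had 0.437% and 0 of 290. Mmp9 lies at chr2:164940780-164955850 on the plus strand.

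Mmp8 had 83 and 133 UMIs, at 236 CPM (188 to 292) and 504 CPM (422 to 598), 2.14-fold higher in SCDi (log2 ratio 1.096, 0.69 to 1.51). The UMIs came from 16 of 74 and 19 of 53 cells, and the cell with most had 37 in both libraries. Timp2 had 44 and 60 UMIs, at 125 and 227 CPM (0.86, 0.28 to 1.46), with 19 of the SCDi UMIs in 1 cell. Mmp13 had 0 UMIs in both libraries, which allows up to 8.53 and 11.4 CPM.

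In malignant-like cells (6011 vehicle and 6965 SCDi, median 43928 and 39216 UMIs), 0 of 6 measured genes were past 1.5-fold in either direction, beside 5.13% of all 15472 measured genes higher and 3.09% lower, and the median log2 ratio was -0.04 against -0.02.

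Timp2 had 119978 and 108930 UMIs, at 438 CPM (436 to 441) and 374 CPM (371 to 376), a log2 ratio of -0.23. It was found in 99.6% and 99.3% of cells, and after thinning in 55.3% and 50.01%, against 13.8% and 8.28% in T-like cells. Over the 10 malignant-like clusters with 50 or more cells in both libraries, the vehicle level ran from 312 to 529 CPM. The lowest of these was cluster 2, which held 191 vehicle and 1760 SCDi cells, at 312 and 235 CPM.

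Timp1 had 48326 and 60065 UMIs, at 177 CPM (175 to 178) and 206 CPM (204 to 208), a log2 ratio of 0.22 (0.20 to 0.24). The cluster with the highest Timp1 was cluster 3, at 244 and 367 CPM, which held 360 vehicle and 1205 SCDi cells. Clusters 0, 3 and 6 each had 1 marker of another class among their leading genes within the tumour sort. Without them Timp1 was at 177 and 170 CPM (-0.06) and Timp2 at 431 and 326 CPM (-0.40).

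Mmp14 had 21800 and 19939 UMIs, at 79.6 CPM (78.6 to 80.7) and 68.4 CPM (67.4 to 69.3), a log2 ratio of -0.22. It was found in 90.7% and 86.8% of cells, and in 14.2% and 12.4% after thinning, beside 8.95% and 11.03% in T-like cells, which lay in the immune libraries and so do not measure the free RNA of the tumour libraries. Mmp14 lies at chr14:54431612-54445364 on the plus strand and Timp2 at chr11:118301069-118355740 on the minus strand. Timp2 overlaps Cep295nl on the same strand, where read direction would not separate them, and the level of Cep295nl is not given here.

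**Figure D5:**
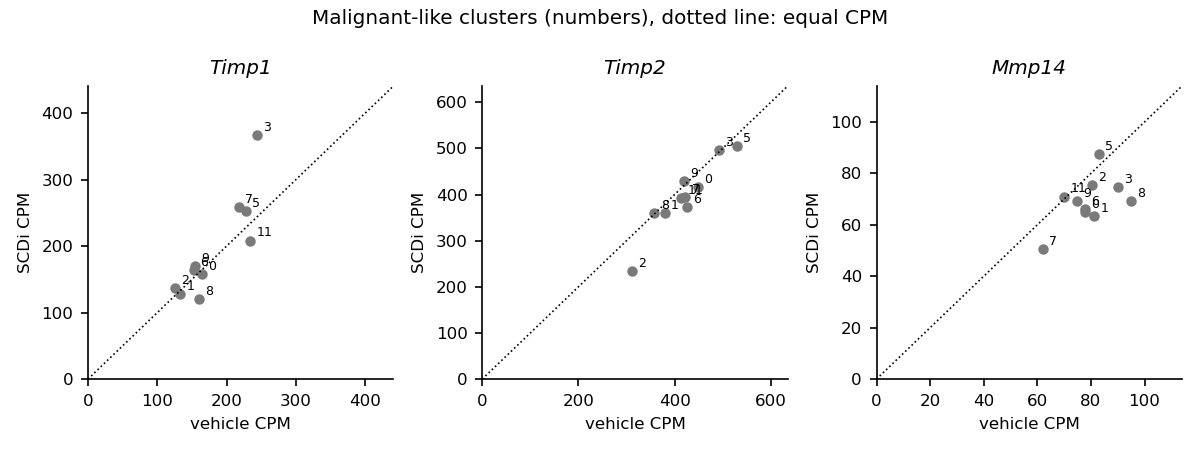
CPM of Timp1, Timp2 and Mmp14 in each malignant-like cluster, vehicle (horizontal) against SCDi (vertical). Timp1 in cluster 3 lies above the line of equal level, at 244 and 367 CPM, and Timp2 in cluster 2 lies below it, at 312 and 235 CPM.

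In the same cells Mmp9 had 808 and 581 UMIs, at 2.95 and 1.99 CPM (log2 ratio -0.57, -0.72 to -0.41), and was present in 9.83% and 7.45% of cells, or 0.518% and 0.360% after thinning. Mmp19 had 687 and 809 UMIs, at 2.51 and 2.77 CPM (0.14, -0.00 to 0.29), and Ctsk 48 and 66 UMIs. Tmem198b, which overlaps Mmp19 on the other strand, was at 5.02 and 4.81 CPM in these cells. Reads of Mmp19 and Tmem198b cannot be told apart where strand is not known. Mmp8 and Mmp12 had 0 UMIs in both libraries, which allows up to 0.0110 CPM in vehicle and 0.0103 CPM in SCDi, and Mmp13 had 2 and 1.

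Timp2 was also a gene of microglia-like cells (413 and 462), the brain's resident macrophages, at 551 CPM (536 to 567) and 646 CPM (631 to 662), a log2 ratio of 0.23. Mmp14 was at 81.0 and 59.6 CPM there (-0.44) and Mmp19 at 7.83 and 4.79 CPM (-0.71, from 69 and 50 UMIs). Of 5 measured genes, 2 were higher (Mmp12 and Mmp13) and 1 lower (Mmp19), where 2.5% and 2.92% of all genes were. T-like cells held more of both Mmp13 (14.4 and 29.5 CPM) and Mmp19 (14.9 and 15.9 CPM) than microglia-like cells, whose Mmp13 was at 3.29 and 6.70 CPM. The Mmp19 value was past 1.5-fold in 5 of 10 alternatives (-1.08 to -0.21). Both higher values came from few cells: Mmp12 had 19 and 82 UMIs in 10 and 14 cells, and Mmp13 29 and 70 UMIs, of which 51 lay in 1 SCDi cell. The class was made up differently in the 2 libraries. Cluster 10 held 34.6% of the vehicle and 52.2% of the SCDi class, cluster 15 held 30.5% and 27.1%, and cluster 17 held 33.7% and 18.2%. Mmp14 was at 45.3 and 19.6 CPM in cluster 10 (-1.21, -1.69 to -0.74), 86.7 and 76.3 CPM in cluster 15 (-0.18) and 107 and 79.5 CPM in cluster 17 (-0.43). Timp2 was at 290 and 393, 685 and 854, and 587 and 633 CPM in the same order.

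Timp3, a matrix-bound inhibitor, was found in migratory dendritic-like cells (462 and 240) with 191 and 103 UMIs, at 31.6 CPM (27.3 to 36.4) and 30.8 CPM (25.1 to 37.3). A UMI was found in 26.4% and 29.2% of cells, and after thinning in 6.65% and 5.46%, against 0 of 458 and 0.345% in T-like cells. Timp3 lies at chr10:86300372-86349506 within Syn3 of the other strand, and Syn3 had 865 and 812 CPM in the same cells, so reads of the 2 genes cannot be told apart where strand is not known. Malignant-like cells held 7 and 0 UMIs of Timp3. Mast or basophil-like cells, under 50 in SCDi (71 and 38 cells), held 69 and 34 UMIs of Timp3 at 74.1 and 70.3 CPM, above the migratory dendritic-like level. Krt8 was found in 36.6% and 57.9% of these mast or basophil-like cells and Ptprc in only 38.0% and 31.6%. Endothelial-like cells of the tumour sort (39 and 35 cells) held 195 and 54 UMIs of Timp3 at 395 and 85.0 CPM, also above the migratory dendritic-like level. They also held 117 and 0 UMIs of the fibroblast marker Col1a1, those of vehicle in 3 cells. Which of the cells in these small classes made Timp3 was not tested.

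Of 82 other protease, inhibitor and substrate genes on a list, 81 were among the genes of the matrices. In macrophage-like cells 43 were measured, with 0 higher and 7 lower and a median log2 ratio of -0.10. Over all genes measured there, 1.79% were higher and 4.94% lower, and the median was -0.03. The lowest were Serpinb2, a plasminogen activator inhibitor, at 8.18 and 2.83 CPM (-1.53) and Adam19 at 4.13 and 1.52 CPM (-1.44). The highest were Serpine2 (0.55) and Mmp25 at 15.8 and 22.6 CPM (0.52). All 10 measured cathepsins other than Ctsk stayed within 1.5-fold.

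In monocyte-like cells 1 of 36 was higher and 3 lower, beside 2.53% and 2.66% of all genes. Slpi, an inhibitor of neutrophil serine proteases, was at 1358 and 564 CPM (-1.27), and Plau, urokinase, at 7.79 and 12.5 CPM (0.68). In neutrophil-like cells 2 of 19 were higher and 5 lower, beside 10.3% and 17.2% of all genes. Stfa1, a cystatin-type inhibitor, was at 8 and 118 UMIs (4.30) and Furin, which cleaves proforms, at 199 and 94.8 CPM (-1.07). In malignant-like cells 3 of 49 were higher and 7 lower, beside 5.13% and 3.09% of all genes. Mmp3 was at 105 and 2 UMIs (-5.81), Timp4 at 65 and 10 UMIs (-2.79) and Col1a1 at 51 and 253 UMIs (2.22).

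Across 12 classes in 2 libraries each (24 points that share libraries, log2(CPM + 1)), the genes with the pattern most like Mmp12 were Ms4a14 (Pearson r 0.841), Ccl7 (0.830) and Gpnmb (0.824). For Mmp13 they were Ms4a14 (0.899), Tmem171 (0.886) and Pf4 (0.832), for Ctsk Pdpn (0.906), Gdf3 (0.863) and Arg1 (0.841), and for Mmp14 Rab7b (0.914), Lgals3 (0.903) and Lrp1 (0.871). Mmp19 was most like F13a1 (0.921), Mcub (0.907) and Stom (0.893), and Mmp9 most like Ceacam10 (0.981), Mrgpra2b (0.974) and Stfa2l1 (0.972). Mmp8 was most like Trem1 (0.946), Fpr2 (0.938) and Fpr1 (0.932). Timp1 was most like Dmkn (0.869), Vim and Trim16 (0.835), Timp2 most like Cela1 (0.868), Hebp1 (0.862) and Napa (0.856), and Timp3 most like Syn3 (0.981), Strip2 (0.976) and Bmper (0.969). With 10 in place of 1 added to the CPM, Mmp12 was most like Ms4a14 (0.895), Folr2 (0.891) and Ctsk (0.887). Of the genes listed above, only Trem1 then stayed for Mmp8, Vim for Timp1, Hebp1 for Timp2 and Strip2 for Timp3. The genes for Mmp13 and Ctsk were unchanged.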

How the data were processed

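The files deposited are matrices of unnormalized UMI counts for each barcode, made by the authors from 3′ single-cell libraries with Cell Ranger 7.1.0 on mm10, per the submitters' processing notes. The use of intronic reads and of strand is not given in the sources used here. Barcodes with under 300 genes or over 15% mitochondrial UMIs were left out. Doublets were scored by a Scrublet-type method, and the top 0.8% per 1000 barcodes were removed. Cells of each sort were clustered (Leiden, resolution 1, 2000 variable genes, 30 components, 20 neighbours) without the 10 genes, and clusters were named from markers (fold 2, share 10%, 3 markers). Cells with both lymphoid and myeloid transcripts were removed, and unnamed clusters were kept out of the classes. UMIs were summed per class and library and divided by the class total. Intervals are exact Poisson for levels, Clopper-Pearson for shares and conditional binomial for ratios, and cover counting error only. Shares were thinned to 2000 UMIs per cell. A class value of 0 is limited by 3 counts. With 1 library in each group no test was possible. Python 3.11.15, numpy 2.4.6, scipy 1.17.1, scikit-learn 1.9.0 and leidenalg 0.10.2 were used. The ratio calculation was also run on simulated macrophage-like counts drawn with counting error only. Such a run checks the arithmetic and cannot show how the intervals do where few cells hold most UMIs, as for Mmp12.

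The genes named are the 10 members, the 2 highest and 2 lowest of the pathway list per main class and the 3 genes most like each member. Not all of the genes this takes are printed. Members, lists and marker sets were chosen with earlier results of these data known. Gene positions come from GENCODE M21 on GRCm38 and promoters from RefSeq on GRCm38.p6. Alternatives were other cell filters, no doublet removal, resolutions 0.5 and 2, median-of-ratios scaling, the mean of each cell's CPM, mixed cells kept, other UMI minimums and folds, and means over clusters. Leaving out the cells with most UMIs, adding unnamed clusters and leaving out malignant clusters 0, 3 and 6 were chosen after seeing the data.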

Additional observations from a re-analysis of the deposited data

Results flagged for a closer look

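The log2 ratio of Mmp12, SCDi over vehicle, was 1.87 in microglia-like cells and -1.53 in macrophage-like cells, and the difference was not tested, since there is 1 library per group. The microglia-like value rests on 82 SCDi UMIs in 14 cells, with 35 in a single cell. It was -0.37 under the stricter cell filter and -0.072 without doublet removal, so its direction is not settled.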

How the results depend on the processing

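No paired analysis was possible because there is 1 library per group and no shared replicate number. The leading immune class of each gene was the same under all alternatives run, and Mmp12 and Ctsk in macrophage-like cells and Timp1 in monocyte-like cells stayed past 1.5-fold in all of theirs (12, 12 and 10), with log2 ranges of -1.83 to -1.01, -1.26 to -0.89 and -0.75 to -0.64. Mmp8 in neutrophil-like cells stayed past it in 9 of 9. The monocyte-like Mmp13 value was past it in 7 of 10, the neutrophil-like Timp2 value in 7 of 9, and the non-classical Mmp14 value in 2 of 10.

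Counts of members past 1.5-fold (2 in monocyte-like, 2 in neutrophil-like and 0 in malignant-like cells) were 1, 2 and 1 without doublet removal. At the lower fold tried they were 5 in monocyte-like and 2 in malignant-like cells, and at a fold of 2 they were 0 in monocyte-like and 1 in neutrophil-like cells. In neutrophil-like cells the count was 1 by the mean of each cell's CPM, without the cell with the most UMIs, and at a minimum of 200 UMIs, and 6 with no minimum. In malignant-like cells it was 1 as a mean over clusters, 1 without clusters 0, 3 and 6, and 2 with no minimum. The pathway list (7, 4, 7 and 10 genes in macrophage-, monocyte-, neutrophil- and malignant-like cells) gave 24, 20, 26 and 30 with no minimum, 13, 9, 12 and 22 at that lower fold, and 4, 1, 4 and 5 at a fold of 2. With a minimum of 200 UMIs it gave 4, 2 and 6 in macrophage-, neutrophil- and malignant-like cells, and at resolution 2 it gave 2 in macrophage-like cells. Shares over all genes were not worked out at these other settings, so the counts have no background beside them.

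In microglia-like cells the Mmp12 log2 ratio was -0.37 under the stricter filter and -0.072 without doublet removal. That of Mmp13 was -0.21 with all barcodes, -0.52 without doublet removal, -0.53 at resolution 0.5, -0.52 without the 1 cell with the most UMIs and -0.86 without 10 such cells. The cause was not tested. In macrophage-like cells Timp1 ranged from -0.09 to 1.00, and in malignant-like cells from -0.06 to 0.24, so its direction is not settled in either. Classes of few cells limit precision, such as the 53 neutrophil-like cells of SCDi.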

Other observations

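Type 1 dendritic-like cells, only 15 vehicle and 32 SCDi cells, held 336 and 105 CPM of Mmp13 (270 and 191 UMIs), a level set by very few cells. Their median depths were high, at 60667 and 54427 UMIs, and their cluster met 3 type 1 dendritic and 2 macrophage markers. Whether droplets with more than 1 cell gave this level was not tested. In the vehicle library unnamed cluster 19, whose markers were those of microglia, held 64 Mmp12 UMIs against 0 in SCDi. B-like cells of SCDi held 22 Mmp9 UMIs, all in 1 cell. Endothelial-like cells of the tumour sort (39 and 35 cells, under the 50 needed for a class comparison) held 507 and 80 Timp1 UMIs. Their Col1a1 UMIs were 117 and 0, those of vehicle in 3 cells.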
